A study of Penaeus japonicus with 16 samples.

Results

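The 6 lysozyme probes of a kuruma shrimp (Penaeus japonicus) oligonucleotide array were compared across 5 tissues. They were all the probes whose description contained the word lysozyme, 6 of 13875 shrimp probes. No measured value entered that choice. Lysozymes are secreted or lysosomal enzymes that cut the sugar backbone of peptidoglycan, the mesh of the bacterial cell wall. Animals carry several families, among them the c-type (named for the chicken enzyme) and the i-type (the invertebrate type). In penaeid shrimp c-type lysozyme is known as an antibacterial protein of the hemocytes, the circulating blood cells, and in other animals members of these families also serve digestion.

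RNA came from the gills, hepatopancreas (the digestive gland), lymphoid organ (a hemolymph-filtering organ of penaeid shrimp that lies beside the hepatopancreas) and muscle, with 3 arrays each, and from hemocytes, with 4 arrays. The shrimp had received no treatment and looked healthy, and the labels gave no age, sex or strain. Nothing in the labels ties samples to separate shrimp, so p-values measure only the spread between samples, which may be technical. The series belongs to a study of a C-type lectin of the gills.

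Arrays of a tissue resembled each other (mean Pearson correlation over tested probes from 0.841 to 0.93 per array) more than they resembled the closest other tissue (0.59 to 0.809). Between 41.0% and 82.3% of probes were detected per array, and the 75th percentile of signals ran from 31.3 to 299.7. Tissue labels were checked by marker probes. Of 15 tested hemocyte markers (the terms searched were prophenoloxidase, penaeidin, transglutaminase, peroxinectin and hemocyte homeostasis) 12 were higher in hemocytes than in the other 4 tissues on average. The corresponding counts were 38 of 43 digestive and hemolymph protein probes in hepatopancreas, 15 of 22 sarcomere and arginine kinase probes in muscle and 5 of 10 probes for carbonic anhydrase and ion transport in gills. Lower in their own tissue were 1 hemocyte, 3 hepatopancreas, 3 muscle and 1 gill marker. Of all tested probes 18.8% were higher in hemocytes, 20.5% in hepatopancreas, 20.4% in muscle and 9.15% in gills. Higher and lower mean calls as defined below. Summed gill markers overlapped between gills (77.5 to 130 times the 75th percentile) and hemocytes (88.2 to 112). No marker list was available for the lymphoid organ.

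Of the 6 probes, 3 were described only as lysozyme (cluster000012, cluster013224 and cluster027305). Another was i-type lysozyme-like protein 2 (cluster035916). The other two came from sequence titles of this species, lyz-1 for a lysozyme like protein and lys-pj for a c-type lysozyme. Signals are given as log2 of the signal over the 75th percentile of the same array, the log2 relative signal, so that 0 marks that percentile. Of these probes 5 were tested, since they were detected on every array of at least 1 tissue, and lys-pj was not.

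All 5 tested probes differed among tissues in limma's moderated F test at an adjusted p under 0.05, where 69.1% of the 10317 tested probes did. Their adjusted p-values lay between 2.6e-07 (cluster013224) and 0.00406 (lyz-1). The detection filter was passed by cluster013224 only through hepatopancreas and by cluster035916 only through gills, the tissues where they were bright. Differences of these probes in favour of those tissues are therefore partly set by the filter. The 5 probes fell into 3 patterns. The lyz-1 and cluster000012 probes were bright in hemocytes, lymphoid organ and gills, cluster027305 and cluster013224 in hepatopancreas, and cluster035916 in gills.

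**Figure D1:**
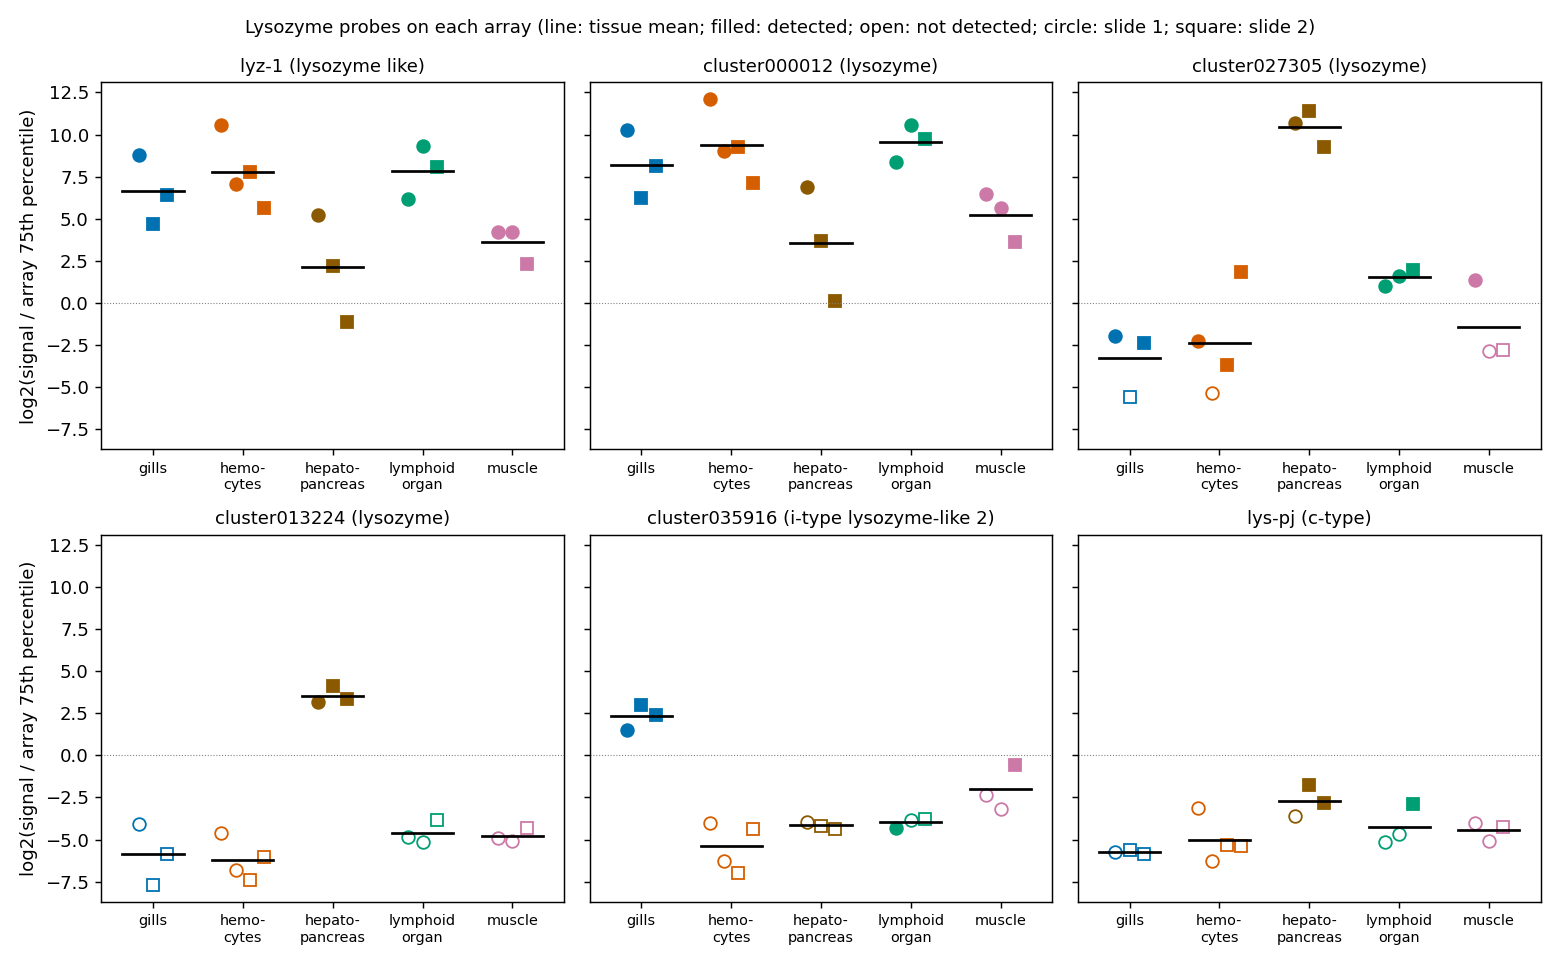
Log2 relative signal of each lysozyme probe on each of the 16 arrays (vertical axis, log2 of the signal over the array's 75th percentile), by tissue. Filled symbols are detected spots, open symbols are not detected, circles are slide 1, squares slide 2 and lines the tissue means. The i-type probe stands between 1.52 and 3.02 in gills and below 0 on all other arrays.

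The lyz-1 probe, for a lysozyme like protein, was detected on all 16 arrays. In hemocytes its log2 relative signals were 10.56, 7.04, 7.77 and 5.64 on arrays 1 to 4. In the lymphoid organ they were 6.20, 9.29 and 8.07, and in gills 8.78, 4.68 and 6.41. These 3 tissues overlapped throughout. In muscle the values were 4.24, 4.24 and 2.32. In hepatopancreas they were 5.22, 2.21 and −1.11 on arrays 1, 3 and 4, a range of 80.6-fold. Every hemocyte and lymphoid organ array lay above every muscle and hepatopancreas array. In these pairs of tissues, 40.5% to 50.9% of all tested probes had no overlap in either direction.

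In order of mean level, lyz-1 stood at 7.85 ± 1.56 (SD, n = 3) in the lymphoid organ, 7.75 ± 2.07 (n = 4) in hemocytes, 6.62 ± 2.06 (n = 3) in gills, 3.60 ± 1.11 (n = 3) in muscle and 2.11 ± 3.17 (n = 3) in hepatopancreas. No step between neighbours in that order was called, a call being an adjusted p under 0.05 (limma, Benjamini-Hochberg over all tested probes) with a difference of at least 2-fold. The lymphoid organ and hemocytes differed by 0.10 (95% interval −2.74 to 2.94, adjusted p = 0.969), and hemocytes and gills by 1.13 (−1.71 to 3.97, adjusted p = 0.606). Gills were 3.02 above muscle (−0.015 to 6.06, adjusted p = 0.128), and muscle 1.49 above hepatopancreas (−1.55 to 4.53, adjusted p = 0.43).

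Among steps further apart 5 were called for lyz-1. The lymphoid organ stood 53.6-fold above hepatopancreas (log2 difference 5.74, SE 1.44, adjusted p = 0.00708), hemocytes 49.9-fold above it (5.64, SE 1.34, adjusted p = 0.00215) and gills 22.8-fold above it (4.51, SE 1.44, adjusted p = 0.0225). The gill and hepatopancreas arrays overlapped. Over muscle, the lymphoid organ stood 19.1-fold higher (4.25, SE 1.44, adjusted p = 0.0322) and hemocytes 17.8-fold higher (4.15, SE 1.34, adjusted p = 0.0205).

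Of these 5 calls, the hepatopancreas differences from hemocytes and the lymphoid organ held when any array was left out. The gill to hepatopancreas call ended without gills 1 (adjusted p = 0.0963), gills 3 (0.0506), hepatopancreas 3 (0.051) or hepatopancreas 4 (log2 difference 2.90, adjusted p = 0.116), and the hemocyte to muscle call without hemocytes 1 (0.0592) or muscle 3 (0.0864). The lymphoid organ to muscle call ended without lymphoid organ 2 (0.127), lymphoid organ 3 (0.0801) or any muscle array (0.0514, 0.0529 and 0.114 without muscle 1, 2 and 3).

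The second probe of this pattern, cluster000012, followed lyz-1 from array to array. It was detected on all 16 arrays, with means of 9.55 ± 1.09 (SD, n = 3) in the lymphoid organ, 9.38 ± 2.06 (n = 4) in hemocytes, 8.21 ± 2.01 (n = 3) in gills, 5.24 ± 1.46 (n = 3) in muscle and 3.57 ± 3.36 (n = 3) in hepatopancreas, the same order of tissues. Over the 16 arrays the log2 relative signals of both probes had a Pearson correlation of 0.995 and a Spearman rho of 0.985. After each tissue's mean was taken away the Pearson correlation was 0.988. The points share array, labelling and scaling, and the next highest value after that step was 0.549, for cluster013224 and lys-pj. Whether both probes read the same transcript was not tested.

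**Figure D2:**
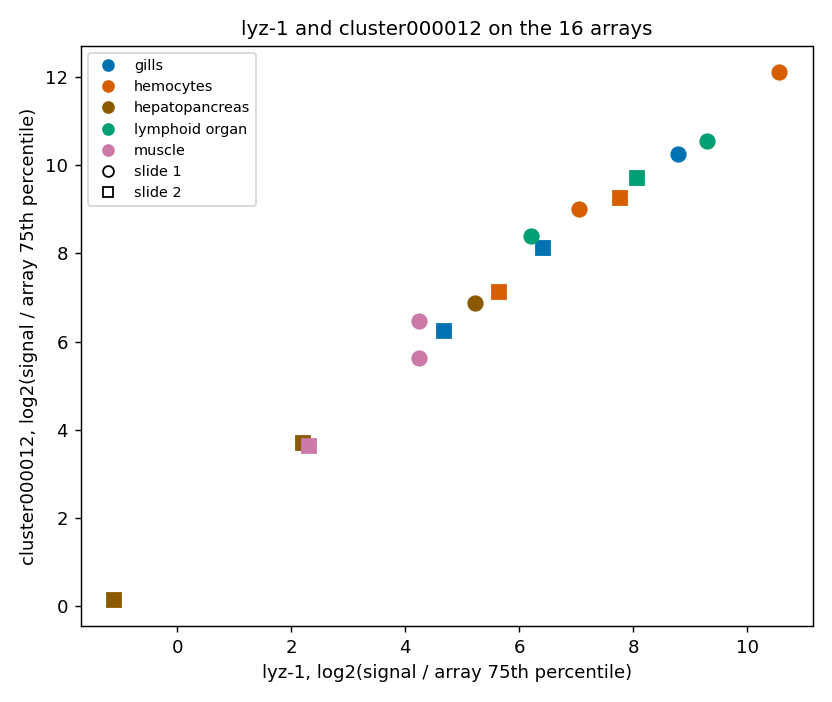
Log2 relative signal of cluster000012 (vertical axis) against lyz-1 (horizontal axis) on the 16 arrays, coloured by tissue, with circles for slide 1 and squares for slide 2. The points follow a straight course from hepatopancreas 4, lowest on both axes, to hemocytes 1, highest on both.

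The same 5 tissue pairs were called for cluster000012. The lymphoid organ was 63.3-fold above hepatopancreas (log2 5.98, SE 1.46, adjusted p = 0.00582), hemocytes 56.0-fold above it (5.81, SE 1.36, adjusted p = 0.0019) and gills 25.0-fold above it (4.64, SE 1.46, adjusted p = 0.0208). Against muscle it was 19.8-fold higher in the lymphoid organ (adjusted p = 0.0323) and 17.5-fold higher in hemocytes (adjusted p = 0.0226). The gill to hepatopancreas call ended without gills 1 (adjusted p = 0.0868), gills 3 (0.0505) or hepatopancreas 4 (log2 2.93, 0.111), the hemocyte to muscle call without hemocytes 1 (0.064) or muscle 3 (0.104), and the lymphoid organ to muscle call without lymphoid organ 2 (0.111), lymphoid organ 3 (0.0784), muscle 2 (0.061) or muscle 3 (0.125).

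Both probes were brighter on slide 1 than on slide 2 within 4 of 5 tissues. For lyz-1 the slide means were 8.78 and 5.54 in gills, 8.80 and 6.70 in hemocytes, 5.22 and 0.55 in hepatopancreas, 4.24 and 2.32 in muscle, and 7.74 and 8.07 in the lymphoid organ. With tissue in the model, slide 1 exceeded slide 2 by 2.30 (SE 0.74, unadjusted p = 0.00726, adjusted p = 0.583 in limma) for lyz-1 and by 2.50 (SE 0.72, unadjusted p = 0.00316, adjusted p = 0.583) for cluster000012. The slide difference was examined after these values were seen. Over all tested probes 0 were called for slide (0%), and 842 had an unadjusted p under 0.05.

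The tissue calls of both probes were kept with slide as a block. The 5 called differences of lyz-1 were then 4.25 to 5.26 in size (highest adjusted p = 0.0109), 2.52 to 4.56 within slide 1 and 4.38 to 7.52 within slide 2, all in the same direction. For cluster000012 they were 4.31 to 5.39 with the block, 2.61 to 4.51 within slide 1 and 4.56 to 7.79 within slide 2. Gills and hepatopancreas have 1 array each on slide 1, and the lymphoid organ and muscle 1 each on slide 2. Differences within a slide, here and below, can therefore rest on single arrays. With the block the gills also exceeded muscle, by 3.79 for lyz-1 (adjusted p = 0.0267) and 3.80 for cluster000012 (adjusted p = 0.0218).

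Hemocytes circulate through every organ, so hemocyte markers were set beside these values. The summed relative signal of the 15 markers lay between 1382 and 2952 on hemocyte arrays, 85.3 and 475 in the lymphoid organ, 64.7 and 231 in gills, 23.9 and 81.6 in hepatopancreas and 11.2 and 75.5 in muscle. Of the 15 markers 1 was undetected on all hemocyte arrays, and none was undetected throughout any other tissue. Between hemocytes and the lymphoid organ 11 of 15 markers were called higher in hemocytes (median log2 difference 3.52), and 0 of 5 lysozyme probes were called by limma, where 21.5% of tested probes were. At an unadjusted p under 0.05, 1 lysozyme probe (cluster027305) differed between them. On the arrays of both tissues cluster013224 was never detected, and cluster035916 was detected on lymphoid organ 1 alone. For these probes the lack of a call cannot show alike levels. The part of hemocytes in the signal of the organs was not tested. In bulk tissue, fewer cells of a type and less RNA per cell cannot be told apart.

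The most alike described probes, by Pearson correlation of log2 relative signal over the 16 arrays, were shared by lyz-1 and cluster000012. A probe titled K9 of Fenneropenaeus chinensis (cluster015259) came first at 0.939 and 0.948, followed by cluster012410 at 0.918 and 0.913. Innexin inx3, a gap junction protein (cluster019418), reached 0.897 and 0.887, and vascular endothelial growth factor, a secreted signalling protein (cluster031583), 0.895 and 0.894. The list closed with a septin-4-like protein for lyz-1 (0.884) and a probe called poly for cluster000012 (0.882). Lysozyme probes were left out of this list. Correlations above 0.9 were found for 3 tested probes in each case, the other lysozyme probe of the pattern (0.995) among them.

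The cluster027305 probe was a hepatopancreas probe. Its log2 relative signals there were 10.68, 11.42 and 9.28 on arrays 1, 3 and 4, which is 1408 times the 75th percentile at the mean of 10.46 ± 1.09 (SD, n = 3). In the lymphoid organ they were 1.01, 1.59 and 1.94, all detected. Outside the hepatopancreas no array passed 1.94, and the gap to the dimmest hepatopancreas array was 7.34. In the pairs with hepatopancreas, 40.5% to 50.9% of all tested probes had no overlap in either direction.

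In hemocytes cluster027305 stood at −2.24, −5.37, −3.68 and 1.86, with array 2 not detected. In muscle it stood at 1.39, −2.82 and −2.80, detected on array 1 alone. In gills it stood at −1.96, −5.56 and −2.35, with array 2 not detected. Hemocytes 4 and muscle 1 therefore lay apart from the other arrays of their tissues, within the range of the lymphoid organ.

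Hepatopancreas exceeded each other tissue at cluster027305. The difference was 13.75 over gills (SE 1.48, adjusted p = 2.13e-06), 12.82 over hemocytes (SE 1.38, adjusted p = 1.27e-06), 11.87 over muscle (SE 1.48, adjusted p = 8.46e-06) and 8.94 over the lymphoid organ (SE 1.48, adjusted p = 0.000227), the last equal to 492-fold. When each undetected spot was set no lower than its array's dimmest detected one, the folds were 13657 over gills, 6338 over hemocytes and 3197 over muscle. The 4 differences were 8.91 to 13.75 with slide as a block, 9.38 to 14.48 within slide 1 and 8.41 to 14.30 within slide 2. No alternative ended these calls.

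The lymphoid organ came second in the order, at 1.52 ± 0.47 (n = 3), ahead of muscle (−1.41 ± 2.42, n = 3), hemocytes (−2.36 ± 3.09, n = 4) and gills (−3.29 ± 1.98, n = 3). Its difference from gills was 4.81 (SE 1.48, adjusted p = 0.052), from hemocytes 3.88 (SE 1.38, adjusted p = 0.0559) and from muscle 2.93 (SE 1.48, adjusted p = 0.144), none of them called. The gill difference was called without gills 1 (5.47, adjusted p = 0.0372), hemocytes 2 (0.0342), hemocytes 4 (0.0144) or muscle 1 (0.0364). The hemocyte difference was called without hemocytes 4 (5.28, adjusted p = 0.00428), gills 2 (0.0402) or muscle 1 (0.0398), and the muscle difference without muscle 1 (4.33, adjusted p = 0.0443). Muscle, hemocytes and gills did not differ by a call (adjusted p from 0.371 to 0.689). Each of these tissues held undetected spots, so their order is not settled.

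The median level of hepatopancreas markers moved with this probe between arrays, but in gills their summed level did not. Of 48 marker probes (by the names trypsin, chymotrypsin, vitellogenin and hemocyanin) 35 were detected on hemocytes 4 and 17 to 27 on the other hemocyte arrays, and 37 on muscle 1 against 20 and 23 on muscle 3 and 2. In the lymphoid organ 37 to 42 were detected, and their median log2 relative signal was −0.40, −0.35 and 0.54. That median was −1.34 on hemocytes 4 against −5.55 to −2.99 on the other hemocyte arrays, and 0.53 on muscle 1 against −2.91 and −2.78. In gills 1, 2 and 3 the median was −1.49, −4.87 and −2.99, highest where cluster027305 was highest and lowest where it was lowest. The summed relative signal there was 175, 363 and 401, lowest on gills 1. Marker values and cluster027305 share the divisor of each array. Before that division cluster027305 had signals of 13.8, 5.63 (not detected) and 33.6 on gills 1, 2 and 3, highest on gills 3. The summed relative signal of the 48 probes lay between 20788 and 106576 in hepatopancreas, 131 and 251 in the lymphoid organ, 175 and 401 in gills, 35.0 and 191 in muscle and 8.86 and 56.4 in hemocytes. On the lymphoid organ arrays 4 markers were undetected throughout, and 8, 10 and 12 in gills, muscle and hemocytes. The part of hepatopancreas RNA in the values of cluster027305 elsewhere was not tested.

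**Figure D3:**
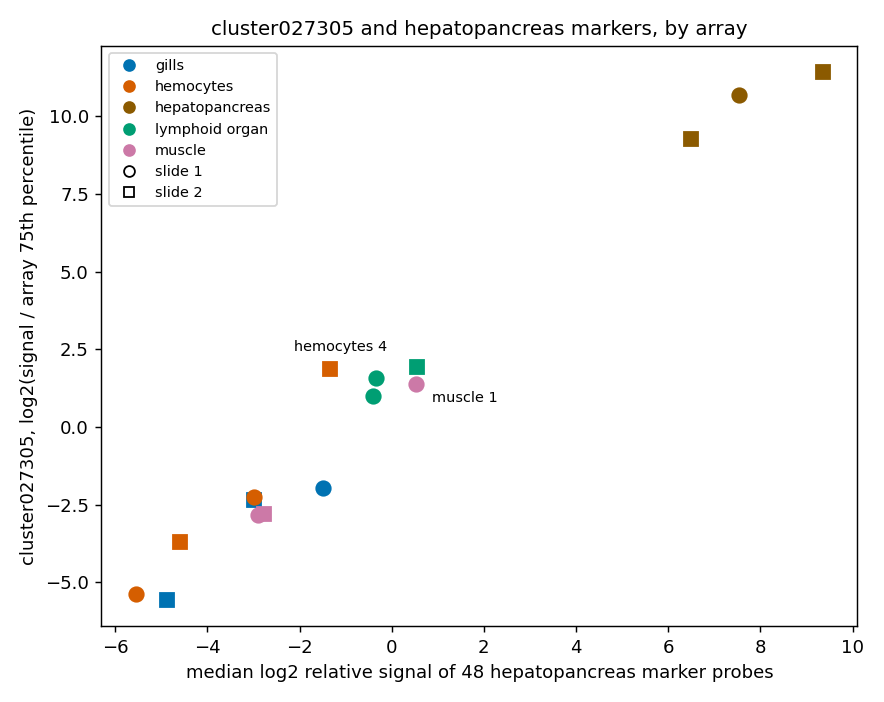
Log2 relative signal of cluster027305 (vertical axis) against the median log2 relative signal of 48 hepatopancreas marker probes (horizontal axis) on the 16 arrays, coloured by tissue, with circles for slide 1 and squares for slide 2. Hemocytes 4 (1.86) and muscle 1 (1.39) lie beside the lymphoid organ arrays (1.01 to 1.94), away from the other arrays of their own tissues.

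Of the 5 described probes most like cluster027305, 3 carried names of digestive proteases. A chymotrypsin-like proteinase of this species correlated with it at 0.996 over the 16 arrays, and trypsin (cluster018150), a serine protease of digestion, at 0.994. The gp330 precursor (cluster019304) reached 0.995, hatching enzyme (cluster006991), a metalloprotease name from other animals, 0.993, and a chymotrypsin-like protein (cluster014829) 0.993. Of all tested probes 285, or 2.76%, passed 0.9, cluster013224 (0.928) among them. The transcript behind cluster027305 belonged to an assembly locus, Locus 3, from which 3241 probes of the array were drawn, with an assembly confidence given as 0.

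The other hepatopancreas probe, cluster013224, was detected on the 3 hepatopancreas arrays and on no other array. Its log2 relative signals there were 3.20, 4.10 and 3.36 on arrays 1, 3 and 4 (3.55 ± 0.48 SD, n = 3). On the other 13 arrays its signal lay between 1.14 and 7.09 in the scanner's units, against 313 to 1294 in hepatopancreas. Hepatopancreas was at least 220-fold above gills (fitted log2 difference 9.42, SE 0.84, adjusted p = 3.58e-07), 211-fold above the lymphoid organ (8.16, SE 0.84, adjusted p = 3.38e-06), 192-fold above hemocytes (9.78, SE 0.79, adjusted p = 6.83e-08) and 68.2-fold above muscle (8.31, SE 0.84, adjusted p = 1.23e-06). These bounds set the dimmer tissue at the lowest detected signal of its arrays or the probe's own signal, whichever was higher. Differences among the other 4 tissues, all below detection, were not called.

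Unlike cluster027305, cluster013224 was not detected on hemocytes 4, on muscle 1 or on the lymphoid organ arrays. Its hepatopancreas mean was lower, 3.55 against 10.46 for cluster027305. From there, a drop like the 8.94 of cluster027305 would end below the lowest detected levels of the lymphoid organ arrays (−4.89, −3.95 and −3.70). Non-detection therefore cannot show that both probes differ in pattern. Its brightest value outside hepatopancreas was −3.83 on lymphoid organ 3, next to that array's lowest detected level of −3.70. The 4 calls were 8.27 to 9.84 in size with slide as a block, 7.26 to 8.92 within slide 1 and 7.57 to 10.50 within slide 2, and no alternative ended them. The probes most like it were sphingomyelin phosphodiesterase, a lipid-splitting enzyme (cluster014473, correlation 0.994), vitelline membrane outer layer protein 1 homolog (cluster011789, 0.994), a zinc endopeptidase chain (cluster028430, 0.992), a probe named for a Drosophila erecta sequence (cluster009502, 0.992) and alpha-amylase, a starch-digesting enzyme (cluster035731, 0.992). Correlations above 0.9 were found for 460 tested probes, or 4.46%, cluster027305 (0.928) among them.

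The i-type lysozyme-like protein 2 probe (cluster035916) was a gill probe. On gill arrays its log2 relative signals were 1.52, 3.02 and 2.40 (2.31 ± 0.75 SD, n = 3), all detected. In muscle they were −2.37, −3.16 and −0.55, detected on array 3 alone. In the lymphoid organ they were −4.29, −3.86 and −3.80, detected on array 1 alone, and on the hemocyte and hepatopancreas arrays (−6.96 to −3.95) the probe was not detected. The gill values overlapped with no other tissue. In the pairs with gills, 27.8% to 43.3% of all tested probes had no overlap in either direction.

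Gills were at least 81.4-fold above hemocytes (fitted log2 difference 7.72, SE 0.74, adjusted p = 1.03e-06) and at least 41.7-fold above hepatopancreas (6.48, SE 0.79, adjusted p = 8.38e-06). They exceeded the lymphoid organ by 6.30 (SE 0.79, adjusted p = 6.62e-05) and muscle by 4.34 (SE 0.79, adjusted p = 0.000661), where the probe was detected on 1 of 3 arrays each. With each undetected spot set no lower than the dimmest detected spot of its array, these folds were 76.9 and 18.8. Muscle was called above hemocytes (fitted difference 3.38, SE 0.74, adjusted p = 0.00154) and above hepatopancreas (2.14, SE 0.79, adjusted p = 0.0356). Both rest on muscle arrays of which 1 of 3 detected the probe, so no bound on the fold is given. Lymphoid organ, hepatopancreas and hemocytes were not separated by a call (adjusted p from 0.17 to 0.897), and muscle and the lymphoid organ differed by 1.96 (SE 0.79, adjusted p = 0.0684).

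The 4 gill calls of the i-type probe held under every alternative run and without any array. With slide as a block the 6 called differences were 2.29 to 7.64, within slide 1 they were 1.19 to 6.67, and within slide 2 3.26 to 8.37. Muscle over hepatopancreas was no longer called without muscle 3, the only muscle array that detected the probe (1.40, adjusted p = 0.183), without muscle 1 (0.0528), or without hepatopancreas 1, 3 or 4 (0.0619, 0.0752 and 0.0751). Muscle over the lymphoid organ became a call without muscle 2 (2.53, adjusted p = 0.0387) or hemocytes 3 (0.0498).

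Gill probes stood closest to the i-type probe in pattern. A probe called isoform d (cluster014813) correlated with it at 0.976 over the 16 arrays, c-type lectin 4, a sugar-binding protein (cluster035786), at 0.960, and arthrodial cuticle protein, of the flexible cuticle at joints (cluster016524), at 0.959. A neurotransmitter gated ion channel (cluster020129) reached 0.956 and cuticle protein cb6 (cluster030113) 0.954. Above 0.9 were 73 tested probes, or 0.708%.

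The lys-pj probe, for a c-type lysozyme, gave little signal anywhere. It was detected on hepatopancreas 3 and 4 (−1.76 and −2.85) and lymphoid organ 3 (−2.88) and on none of the other 13 arrays, and its signals ran from 1 to 17.5 in the scanner's units. It was detected on 0 of 4 hemocyte arrays. How well it binds its transcript was not tested. The probes described only as lysozyme, cluster000012 among them, carry no family name, so whether any of them is c-type is not known. The lys-pj probe was below the detection filter and so was not tested. With no detection filter it differed in 2 of 10 pairs, hepatopancreas over gills by 3.01 (SE 0.78, adjusted p = 0.00864) and over hemocytes by 2.29 (SE 0.73, adjusted p = 0.0178), but gills and hemocytes had no detected array and hepatopancreas had 2 of 3.

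Over the 10 pairs of tissues, 24 of 50 combinations of tested lysozyme probe and pair were called, where 31.6% of all combinations were. Among the 24 are all calls of cluster013224 and the gill calls of cluster035916, which the detection filter partly set. The probe pairs within a pattern are not independent, since lyz-1 and cluster000012 moved together. All 5 probes were called between gills and hepatopancreas (33.7% of all tested probes), 3 of them higher in gills. Between hepatopancreas and hemocytes 4 of 5 were called (52.6%), and between hepatopancreas and the lymphoid organ 4 of 5 (24.7%), in each case 2 in either direction.

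In the pairs with muscle, 3 of 5 were called against hemocytes (41.8% of all tested probes), 3 of 5 against hepatopancreas (45.7%), 2 of 5 against the lymphoid organ (31.9%) and 1 of 5 against gills (28.7%). Between gills and hemocytes (26.5%) and between gills and the lymphoid organ (9.15%) the i-type probe alone was called.

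**Figure D4:**
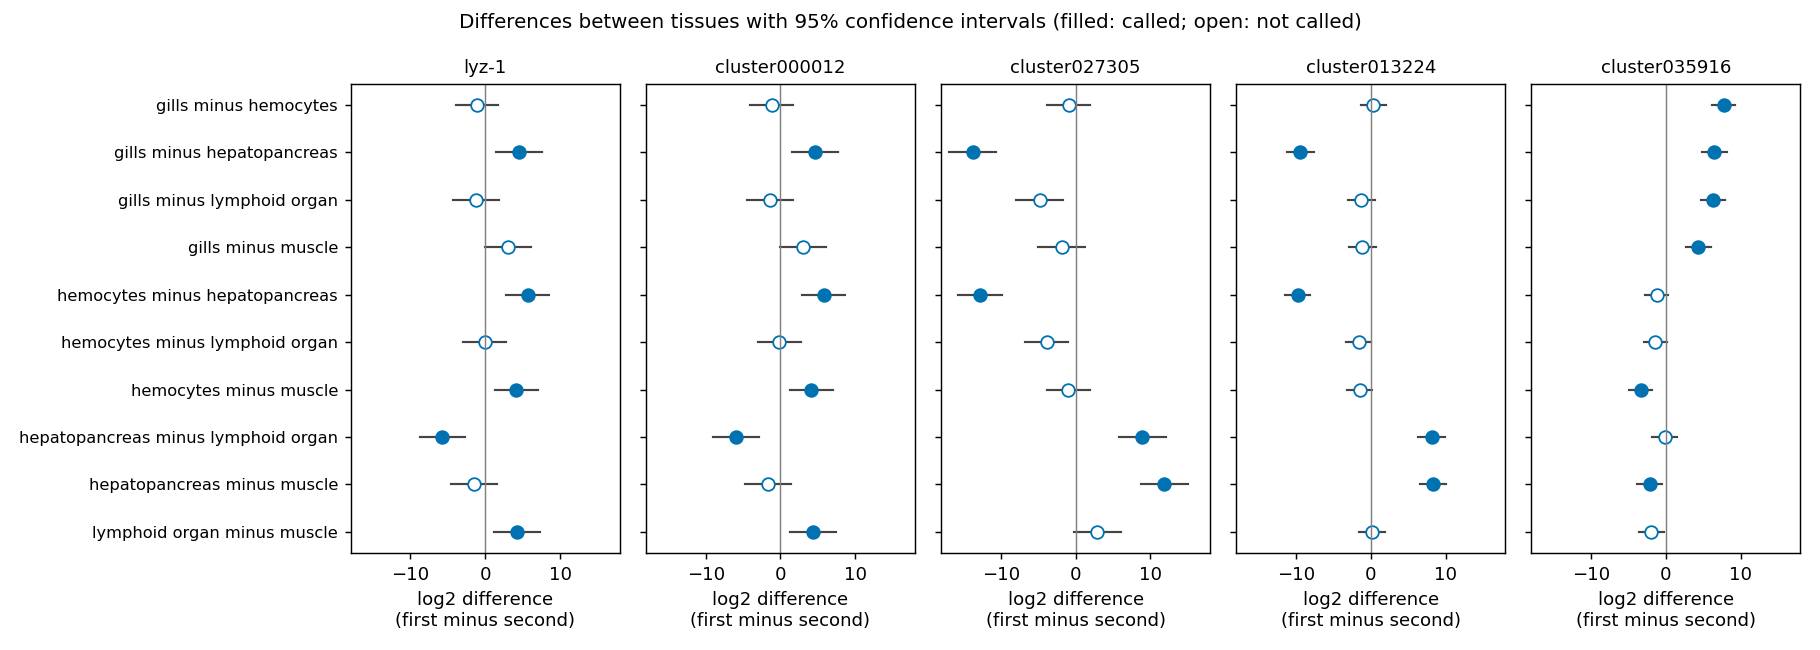
Log2 difference in relative signal between tissues (horizontal axis, first tissue minus second) for the 5 tested lysozyme probes and the 10 pairs of tissues, with 95% confidence intervals as lines. Filled points are called and open points are not. The 4 comparisons with hepatopancreas hold the largest differences of cluster027305, between 8.94 and 13.75, and the 4 with gills those of cluster035916, between 4.34 and 7.72.

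Other antibacterial genes on the array were counted in each tissue against the mean of the other 4. The list of antimicrobial peptides held 30 probes, all tested and all crustins or anti-lipopolysaccharide factors, cationic peptides of crustacean immunity. In hemocytes 11 were higher and 7 lower (18.8% and 27.1% of all tested probes), with a median log2 difference of 0.16 beside −0.041 over all probes. In the lymphoid organ 9 were higher and 2 lower (6.42% and 2.82%; median 0.76 beside 0.098). In gills 6 were higher and 3 lower (9.15% and 8.16%; median 0.85 beside −0.20).

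The peptides were lower in the other two tissues more often than higher. In hepatopancreas 3 were higher and 17 lower (20.5% and 23.4%; median −2.57 beside −0.34), and in muscle 4 were higher and 13 lower (20.4% and 18.4%; median −2.25 beside −0.13). With 1 probe per description, that of highest mean signal, 12 remained. Of these 8 were higher in hemocytes, 3 in the lymphoid organ and 1 in gills, 8 were lower in hepatopancreas and 7 in muscle. Titles for crustin-like peptide and its types 2 to 5 stayed separate, with alike differences in hemocytes (5.90 to 6.01) and hepatopancreas (−5.19 to −4.95). The crustin p probes bright in gills (cluster014337) and in hepatopancreas (cluster014343) dropped out.

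Members of that list stood out in different tissues. Crustin p (cluster014337) was 222-fold higher in gills (log2 7.79, SE 0.75, adjusted p = 1.85e-06), and another crustin p probe (cluster014343) at least 407-fold higher in hepatopancreas (8.75, SE 0.84, adjusted p = 3.95e-07). A crustin p probe in hemocytes (cluster005008) was at least 63.9-fold higher (SE 0.99 on the log2 scale, adjusted p = 0.000126). An anti-lipopolysaccharide factor (cluster015821) led in the lymphoid organ by a fitted log2 difference of 9.18 (SE 0.65, adjusted p = 1.53e-06), at least 285-fold with undetected spots at the dimmest detected level of their array, and was detected on 4 of 13 arrays elsewhere. The mj-alf factor was 50.9-fold lower in hepatopancreas (log2 −5.67, SE 0.41, adjusted p = 2.54e-08). In muscle crustin p (cluster010681) was at least 14.1-fold lower (−3.87, SE 0.90, adjusted p = 0.00271).

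Of 7 probes for recognition of microbial walls 6 were tested, all glucan-binding proteins. In hepatopancreas 4 were higher and 0 lower (median 4.04; the shares and medians of all tested probes are those given above), in hemocytes 2 higher and 3 lower (−1.43), in gills 0 and 2 (−1.95), in muscle 0 and 3 (−1.31) and in the lymphoid organ 0 and 0 (−0.067). Among the hepatopancreas calls were beta-glucan-binding proteins, sensors of microbial sugars, at least 923-fold (cluster023471, log2 10.29, SE 1.17, adjusted p = 3.04e-06) and at least 39.2-fold higher (cluster023469, 6.84, SE 0.66, adjusted p = 4.72e-07). No probe was described as a destabilase, another name for i-type lysozymes.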

How the data were processed

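Cy3-labelled RNA of 16 samples was hybridised to 1-colour arrays on 2 slides of 8 arrays. The authors deposited signal intensities per probe with detection flags, made with Agilent Feature Extraction 10.7.3.1 per the submitters' processing notes, as unscaled processed signals in linear units per the file headers. They also deposited log2 values. These equal the log2 signal minus the log2 of the array's 75th percentile over all 13935 rows, with no centring per probe, found by comparing both tables. The background correction is not given in the sources used here, and saturation flags were not used here, so bright signals may be compressed.

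Here signals of 13875 probes (60 controls left out) were divided by each array's 75th percentile and log2-transformed. Compromised spots were set to missing (no lysozyme spot was), and a probe was tested if some tissue detected it on all its usable arrays, which left 10317. limma 3.58.1 in R 4.3.3 fitted 5 tissue means with an intensity trend in the variance prior (degrees of freedom 11 residual, 5.36 prior), with Benjamini-Hochberg adjustment per comparison. Calls needed an adjusted p under 0.05 and a 2-fold difference. The number of arrays limits the precision. In simulated data for gills against muscle on 10317 probes, 18% of log2 differences of 2 and 84% of differences of 4 were called, and 3 of 10117 unchanged probes. Each size was given to 100 probes, a far smaller share than the 28.7% of probes called in the data. The adjustment depends on that share, so these rates need not hold for the real fit.

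Every lysozyme probe is described. Named companions are up to 2 called members per list and tissue with the largest differences. They also include the 5 described probes, lysozymes left out, most correlated with each tested lysozyme probe. The members, lists and tests were chosen with earlier results of these data known. Alternatives were other scalings, filters, priors, weights, blocks, fold minimums, fits to only the tissues compared, and each array left out. Leaving out gills 1, muscle 1 and hemocytes 4 together was added after seeing the data.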

Additional observations from a re-analysis of the deposited data

How the results depend on the processing

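The 5 tested probes differed among tissues in the F test under every alternative run. The number of called probe and pair combinations was 24, and 19 (without muscle 3) to 26 (without hemocytes 4) with an array left out. It was 23 with only the tissues compared, 25 with scaling on the 3238 probes detected on all arrays, 26 with slide as a block, 29 with quantile normalization and 31 with array weights. It stayed at 24 with a constant prior, a floor, no detection filter, the deposited log2 values, no fold minimum, a 4-fold minimum, and without gills 1, muscle 1 and hemocytes 4 together. Of the 24 called differences 17 were called under every alternative run, and none changed direction. The lost calls were gills over hepatopancreas, hemocytes over muscle and the lymphoid organ over muscle for lyz-1 and cluster000012, and muscle over hepatopancreas for cluster035916. Scaling on common probes moved the median of all tested probes between hepatopancreas and muscle by 0.875. There muscle exceeded hepatopancreas at cluster035916 by 1.26 (adjusted p = 0.21). Relative to the median of all probes, hepatopancreas minus muscle was −1.90 under both scalings. Each scaling divides an array by a constant, so this agreement was fixed in advance and adds nothing to the call. A floor gave 1.15 in favour of muscle (adjusted p = 0.265). Fitting only gills and hepatopancreas gave an adjusted p of 0.0603 for lyz-1 and 0.061 for cluster000012. With the replicate block 28 combinations were called. The added calls were gills over muscle for lyz-1 (adjusted p = 0.0488) and cluster000012 (0.0338) and the lymphoid organ over gills (0.028) and hemocytes (0.0185) for cluster027305. Whether replicate numbers pair the samples could not be decided from correlations of array deviations. Of 27 same-numbered pairs across tissues 8 had correlated deviations above 0.1 (range −0.405 to 0.399, median 0.0206). So did 17 of 75 differently numbered pairs (median −0.0212), and 7 of 16 arrays correlated best with their own number. Signals near the lowest detected level limit the probes cluster013224, cluster035916 and lys-pj, whose values there have no order. The same holds for cluster027305 on gills 2, hemocytes 2, muscle 2 and muscle 3, where it was not detected.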

Other observations

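In hepatopancreas lyz-1 and cluster000012 differed between arrays in the same direction. From array 1 through 3 to 4, which have no order of their own, lyz-1 stood at 5.22, 2.21 and −1.11 and cluster000012 at 6.87, 3.69 and 0.14. On the same arrays cluster027305 spanned 4.40-fold and cluster013224 1.87-fold. The summed relative signal of the 15 hemocyte markers there was 68.9, 81.6 and 23.9.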
